A study of Mus musculus with 28 samples.

Results

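The homeobox genes outside the Hox clusters were taken as every mouse gene whose symbol begins with Nkx, Lhx, Dlx, Irx, Msx, Emx, Otx, Meis, Barx, Cdx or Evx followed by a digit, and the mouse relatives of the fly gene sine oculis, with Lhx2 left out. The rule found 57 symbols among the 18274 named in the 5 tables of the study: 14 Nkx, 8 Lhx, 7 Dlx, 6 Irx, the 5 sine oculis relatives, 3 each of Msx, Emx, Otx and Meis, 2 each of Barx and Cdx, and 1 Evx. Of these symbols 5 name transcripts from the opposite strand of a homeobox gene (Dlx4os, Emx2os, Lhx1os, Nkx2-2os and Otx2os1). Peaks of H3K27me3 were annotated to 49 of the members, of H3K4me3 to 34, of Pol2 to 5 and of ATAC-seq to 16, and the RNA comparison listed 0.

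The cells were hair follicle stem cells, which sit in the bulge of the follicle and rebuild it at each hair cycle. They were released from the skin of mice of the strain given as 132-C67BL/6J and sorted by flow cytometry for CD34 and α6 integrin. Old mice, at 24 months, were compared with young mice, at 6 months, and the labels record no other treatment or allele in either age. Each age had 4 ATAC-seq libraries, 3 H3K27me3 libraries, 3 RNA libraries and, for H3K4me3 and the transcribing enzyme RNA polymerase II (Pol2), 2 libraries each, 28 libraries in all. The series title concerns the accessibility of bivalent promoters in aging, which carry H3K27me3 as well as H3K4me3.

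Homeobox genes encode transcription factors that bind DNA through a homeodomain, often at sites with a TAAT core, and that set the identity of regions and organs in the embryo. H3K27me3 is the mark that Polycomb repressive complex 2 places over silent developmental genes, often in wide domains, and H3K4me3 marks the starts of active or poised genes. A promoter with both marks is bivalent. In skin, Msx and Dlx factors act in follicle growth and hair shaft formation, while most Nkx, Otx, Emx and Evx genes are known from brain, gut, lung, heart or tail and are mostly silent in epidermis.

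Promoter sequences of 5 members are printed because their starts show the arrangements that the results turn on. Dlx1, with a partner Dlx2 beside it, and Msx1, a target of BMP signals, start inside both an H3K27me3 domain and an H3K4me3 peak. Lhx6, a LIM-domain homeobox gene, does so too and also has an ATAC-seq peak over the window. Msx2, needed in mice to keep hair shafts anchored, and Irx3, an Iroquois gene, start in an H3K4me3 peak with no H3K27me3. Each window holds 250 bases before and 50 after the start, from RefSeq on GRCm38.p6. Letters run 5′ to 3′ on the strand of the gene, and capitals mark CG pairs. The windows are chr2:71529195-71529494 on the plus strand for Dlx1, and on the minus strand chr5:37824536-37824835 for Msx1, chr2:36105359-36105658 for Lhx6, chr13:53472731-53473030 for Msx2 and chr8:91801605-91801904 for Irx3.
Dlx1: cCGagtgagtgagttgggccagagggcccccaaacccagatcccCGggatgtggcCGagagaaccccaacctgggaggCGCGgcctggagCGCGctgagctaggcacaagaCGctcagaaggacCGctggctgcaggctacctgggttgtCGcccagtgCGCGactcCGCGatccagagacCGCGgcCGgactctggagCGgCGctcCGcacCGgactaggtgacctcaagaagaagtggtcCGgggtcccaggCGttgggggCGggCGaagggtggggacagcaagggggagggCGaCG
Msx1: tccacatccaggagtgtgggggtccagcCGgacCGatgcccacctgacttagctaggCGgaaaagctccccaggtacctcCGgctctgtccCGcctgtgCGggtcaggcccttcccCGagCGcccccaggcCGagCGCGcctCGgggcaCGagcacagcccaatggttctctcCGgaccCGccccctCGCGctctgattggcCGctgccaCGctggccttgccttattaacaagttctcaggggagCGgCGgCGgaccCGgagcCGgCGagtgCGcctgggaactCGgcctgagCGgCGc
Lhx6: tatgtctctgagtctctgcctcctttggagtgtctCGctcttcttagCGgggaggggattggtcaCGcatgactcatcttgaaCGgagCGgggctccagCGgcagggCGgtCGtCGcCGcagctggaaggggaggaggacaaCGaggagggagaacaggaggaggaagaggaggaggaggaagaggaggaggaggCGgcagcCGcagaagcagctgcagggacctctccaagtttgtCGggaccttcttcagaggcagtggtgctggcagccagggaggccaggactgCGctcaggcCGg
Msx2: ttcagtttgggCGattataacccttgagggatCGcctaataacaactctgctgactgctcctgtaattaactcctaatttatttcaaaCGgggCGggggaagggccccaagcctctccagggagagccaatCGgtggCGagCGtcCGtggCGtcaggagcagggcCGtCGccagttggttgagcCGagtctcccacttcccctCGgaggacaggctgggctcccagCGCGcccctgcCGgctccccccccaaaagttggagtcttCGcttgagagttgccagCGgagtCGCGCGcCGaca
Irx3: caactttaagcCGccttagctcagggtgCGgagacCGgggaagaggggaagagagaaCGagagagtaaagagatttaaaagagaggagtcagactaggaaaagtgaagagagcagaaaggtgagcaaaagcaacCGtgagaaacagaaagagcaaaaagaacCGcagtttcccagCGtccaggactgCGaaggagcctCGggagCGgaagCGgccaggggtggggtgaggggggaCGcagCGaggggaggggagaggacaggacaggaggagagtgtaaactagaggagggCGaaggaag
Msx1 holds 29 CG pairs, Dlx1 27, Msx2 22, Lhx6 16 and Irx3 14. The table of promoters matched 41 members with 48 starts, whose median was 17 CG pairs and 60.5% G or C. The median over all 32851 promoters of that table was 7 CG pairs and 52.7% G or C. The letters TAAT, on either strand, stood in 26 of the 48 member windows (54.2%) and in 58.0% of all promoters. The longer palindrome TAATTA, which contains TAAT, stood in 5 member windows (10.4%) and in 5.29% of all promoters. These windows belong to Msx2, Emx2, Nkx2-2os and Otx2. Otx2 enters through several of its starts, so the windows are not all separate genes.

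The sorted cells were checked on the marks at cell type markers. All 7 follicle stem cell markers, Cd34 and Itga6 of the sort among them, had an H3K4me3 promoter peak and 0 had an H3K27me3 promoter peak. No promoter of the 4 immune markers had an H3K4me3 peak, while 2 of 5 interfollicular, 2 of 3 sebaceous, 3 of 6 fibroblast, 1 of 3 endothelial, 2 of 4 melanocyte and 1 of 3 nerve and glia markers had one. Some markers differed with age at an adjusted p or FDR under 0.05. The authors' deposited table of RNA lists the immune marker Cd74 with a log2 fold change of −1.36 (adjusted p 2.36e-06). It also lists the fibroblast marker Col1a2 with −0.39 (adjusted p 0.0861) and the stem cell marker Nfatc1 with −0.34 (adjusted p 0.0948), both above 0.05. H3K27me3 was called lower at 1 of 2 interfollicular, 1 of 1 sebaceous and 1 of 4 fibroblast promoters with a peak in the authors' deposited table. It was called lower at 0 of 6 endothelial, immune and nerve and glia ones there. Over all genes with an H3K27me3 promoter peak the share was 11.2%, and these marker sets are too small to be told apart from it. The part of these cells in the results below was not tested. In bulk chromatin, a weaker signal in each cell and a signal lost from some of the cells cannot be told apart.

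H3K27me3 was lower in old cells over the promoter domains of these genes. Peaks count as promoter peaks when annotated at most 1 kb from a start, with the peak of highest level taken where a gene had several, and a peak is called when its false discovery rate (FDR) in the deposited DiffBind comparison is under 0.05. Of 38 members with an H3K27me3 promoter peak, 27 (71.1%) were called lower in old cells and 0 higher in the authors' deposited table. Over all 6206 genes with such a peak, 11.2% were called lower and 2.63% higher in the authors' deposited table. All 38 member fold changes lay below 0, from −1.23 to −0.07 with a median of −0.52 on the log2 scale, where the median of all genes in the authors' deposited table was −0.11 and 3578 of 6206 lay below 0. Over all 67985 H3K27me3 peaks, promoter or not, the median in the authors' deposited table was 0.12, with 28338 below 0 and 39181 above. The scaling of the H3K27me3 libraries is not given in the sources at hand, and its part in these shifts was not tested. Levels are mean normalized read counts of an age over a whole peak, on the log2 scale. These tables hold no value per library, so no spread can be set beside a level.

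The Dlx genes, which pattern jaw, limb and forebrain and come in neighbouring pairs, had the largest called change. The Dlx1 domain of 21.08 kb (chr2:71522682-71543758) had a level of 10.77 in old and 11.78 in young cells of the authors' deposited table, a log2 fold change of −1.01 (FDR 2.03e-08). Dlx6 lies in a domain of 46.33 kb that also covers the H3K4me3 promoter peak of Dlx5, and the authors' deposited table gives it 12.57 in old and 13.29 in young cells (−0.72, FDR 3.27e-09). The only promoter peak of Dlx2 was 1.76 kb wide, with 5.95 in old and 6.57 in young cells in the authors' deposited table, and was not called (FDR 0.493). Dlx3, a regulator of hair shaft and epidermal differentiation, had no H3K27me3 peak of its own, and Dlx4os, opposite Dlx4, was not called (−0.20 in the authors' deposited table, FDR 0.798).

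The Otx and Emx genes pattern the head and brain. Otx2, a forebrain and eye regulator, had a level of 11.63 in old and 12.38 in young cells (−0.75, FDR 5.48e-07) in the authors' deposited table. Its relative Otx1 had 11.84 in old and 12.47 in young cells there, −0.63 with FDR 1.84e-05 in the authors' deposited table. For Emx2, which patterns cortex and urogenital tract, the authors' deposited table gives −0.55 (FDR 0.00179), while Emx1 at −0.21 was not called (FDR 0.406). All of these domains were over 25 kb wide.

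Among the Lhx genes, which encode LIM-domain factors, 5 of 6 promoters were called lower, where 11.2% of all genes were. Lhx9, a gene of gonad and limb development, had 11.77 in old and 12.45 in young cells in the authors' deposited table (−0.68, FDR 8.63e-08). Lhx1, known for head and kidney formation, had −0.56, Lhx6 −0.51, Lhx4 −0.47 and Lhx3 −0.36 in the authors' deposited table, the last just inside the threshold with FDR 0.0493. Lhx5 was the exception, with a domain of 85.19 kb and −0.18 in the authors' deposited table (FDR 0.515). The annotated start of Lhx8, a tooth and forebrain gene, lies in a domain that the authors' deposited table assigns to AI606473, with −0.67 and FDR 4.66e-06.

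Of 12 Nkx promoters 9 were called lower, where 11.2% of all genes were. The largest changes were at Nkx2-4, with 9.81 in old and 10.50 in young cells (−0.69, FDR 0.000285 in the authors' deposited table), and at Nkx2-1, a lung, thyroid and forebrain gene, with 11.48 in old and 12.08 in young cells (−0.60, FDR 0.00062). Nkx2-9, close to Nkx2-1 on chromosome 12, had −0.59 in the authors' deposited table (FDR 0.0142). Nkx2-3, a gene of spleen and gut, had the widest promoter domain of the members, 98.74 kb, with a level of 13.96 in old and 14.35 in young cells of the authors' deposited table (−0.39, FDR 0.0159). Nkx2-5, the heart gene, at −0.32 and Nkx1-2 at −0.36 were among those not called in the authors' deposited table, with FDRs of 0.111 and 0.0803.

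The other families gave the same direction. Evx2, which sits at the end of the HoxD cluster, had 13.71 in old and 14.35 in young cells over 74.43 kb in the authors' deposited table (−0.64, FDR 5.47e-06). That domain (chr2:74641803-74716228) runs on past the Evx2 start at 74659557, so its level covers more than this gene. Meis2, a partner of Hox and Pbx proteins, had 11.20 in old and 11.93 in young cells in the authors' deposited table (−0.74, FDR 1.2e-06). Msx1 had 12.39 in old and 12.92 in young cells over 48.97 kb in the authors' deposited table (−0.53, FDR 0.000451). Six2, known from kidney, had −0.41 in the authors' deposited table and was called, whereas Six4 at −0.18 was not (FDR 0.489). Irx6 was the only Iroquois gene with a promoter peak, at −0.40 in the authors' deposited table (FDR 0.0376). Per kb, Lhx1 had the highest H3K27me3 level in the authors' deposited table, 7.77 in old and 8.33 in young cells, and Cdx4, a posterior body axis gene, the lowest in old cells, at 5.05 against 6.28 in young cells. The Cdx4 peak was 0.82 kb wide, and its fold change of −1.23 was not called (FDR 0.162 in the authors' deposited table).

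**Figure D1:**
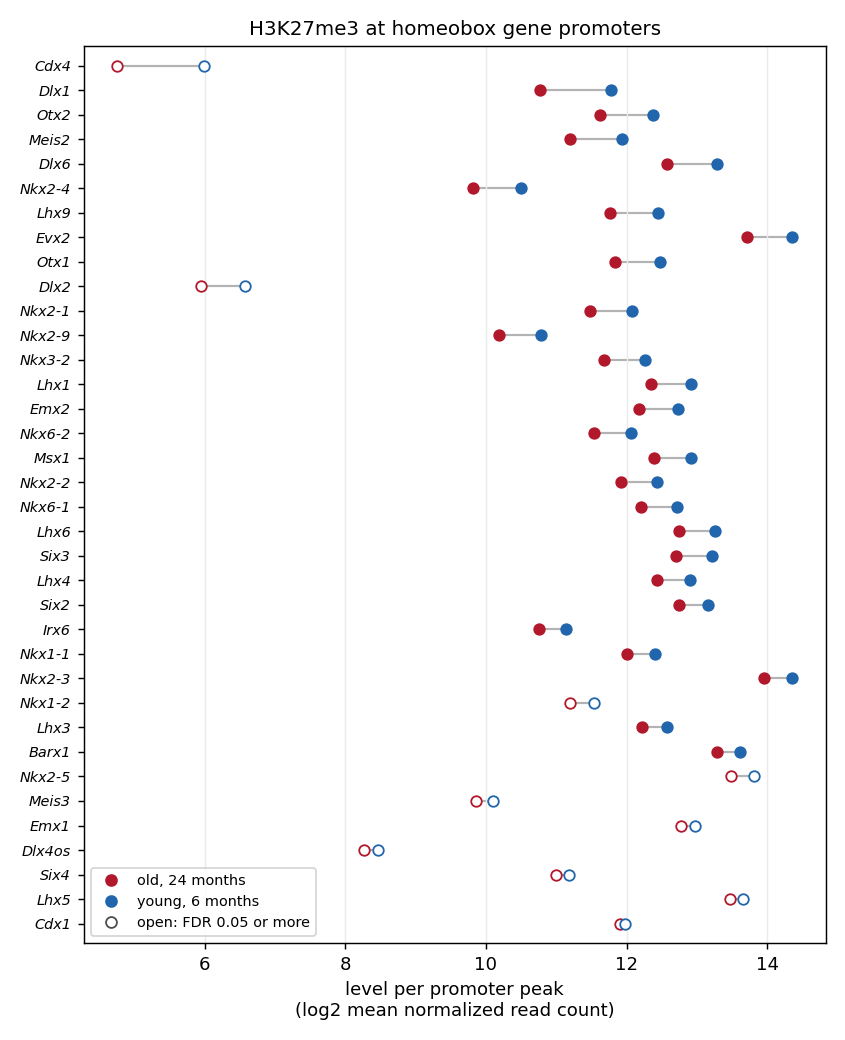
H3K27me3 levels at the promoter peaks of 36 of the 38 homeobox genes in old (red) and young (blue) hair follicle stem cells, as the log2 mean normalized read count of each age from the authors' deposited table, ordered by fold change, with open circles for an FDR of 0.05 or more. The old value lies left of the young one for all 36 genes.

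Most member promoter peaks were wide, and the part of width in the calls was not tested. Member promoter peaks had a median width of 29.4 kb, against 4.21 kb over all genes in the authors' deposited table. All 27 calls were among the 34 member peaks of 10 kb or more (79.4%), and 0 among the 4 narrower ones of Cdx4, Dlx2, Dlx4os and Meis3 in the authors' deposited table. Among all genes, 20.2% of 1591 promoter peaks of 10 kb or more were called lower and 1.57% higher in the authors' deposited table, with a median of −0.17 and 68.8% of fold changes below 0. Among 4615 narrower promoter peaks of all genes, 8.1% were called lower and 2.99% higher in the authors' deposited table, with a median of −0.06, so 0 of 4 lies near the background. The 4 narrower member peaks had a median of −0.43 in the authors' deposited table. This split by width was chosen after the data were seen. Per kb of peak the median level over the members was 6.98 in old and 7.36 in young cells, and over all genes 6.03 in old and 6.09 in young cells, as the authors' deposited table gives them. Of the members with H3K27me3, 19 also had an annotated H3K4me3 promoter peak, and 15 of those were called lower in the authors' deposited table. Of the 19 without one, 12 were called lower there. Over all genes with an H3K27me3 promoter peak, 11.2% were called lower in the authors' deposited table. The split by H3K4me3 was not made over all genes, and the difference was not tested. It goes by annotation, so Dlx6 counts as without H3K4me3, though its domain covers the H3K4me3 promoter peak of Dlx5.

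Away from promoters the member peaks showed few calls. Of all 227 member peaks, wherever they lay, 31 were called lower and 3 higher, where 2.6% and 2.66% of all peaks in the authors' deposited table were. Of 176 H3K27me3 peaks annotated to members beyond the promoter, 3 were called lower and 2 higher, where 1.61% and 2.6% of all such peaks were called in the authors' deposited table. A peak at the 3′ end of Meis2 (chr2:115847363-115864292) was lower, with 10.32 in old and 10.93 in young cells in the authors' deposited table (−0.61, FDR 0.000355). A small distal peak of Nkx6-3, a stomach gene, had 1.77 in old and 6.15 in young cells in the authors' deposited table (−4.38, FDR 1.6e-06). Its old level is low beside the median of 6.01 over all member peaks in old cells, so its fold change rests on few reads. The third lower call, a distal peak of Irx2, had its old level at the lowest value in the authors' deposited table, so its fold change is no measured bound. Between 1 and 3 kb from a start, a peak of Irx1 was lower (−1.18, FDR 0.00262 in the authors' deposited table), and a peak of Meis2 was called higher with its young level at the table's lowest value.

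H3K4me3 was lower in old cells at every member promoter that carried it, as it was at nearly all promoters. The authors' deposited table called 30 of 30 member promoters lower (100.0%), against 96.9% of 12152 genes, with 0.0329% of genes higher. The members ran from −2.21 to −0.98 on the log2 scale with a median of −1.53, and the median of all genes in the authors' deposited table was −1.43. The members' share is near that of all genes. The scaling of these libraries is not given in the sources at hand, and the part of scaling in the shared shift was not tested.

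The largest change was at Nkx2-2. This spinal cord and pancreas gene had 5.08 in old and 7.29 in young cells (−2.21, FDR 2.11e-05 in the authors' deposited table). Its peak (chr2:147194504-147195306) is annotated near a start, but its RefSeq start at 147186402 lies in no H3K4me3 peak. Of the 41 members with a RefSeq start, 19 had one inside an H3K4me3 peak of any gene. Nkx6-1, a gene of motor neurons and insulin-producing cells, had 6.53 in old and 8.70 in young cells in the authors' deposited table (−2.17, FDR 1.56e-07). Nkx2-1 at −1.86, Irx6 at −1.79 and Emx2 at −1.76 were also among the 10 largest in the authors' deposited table. The smallest change was at Msx3, a spinal cord gene, with 9.34 in old and 10.33 in young cells (−0.98, FDR 0.00112 in the authors' deposited table).

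Per kb of peak, the Iroquois genes Irx2, Irx3 and Irx1 had the highest levels. Irx2 led the members with 9.74 in old and 11.30 in young cells per kb in the authors' deposited table, and over its whole peak it had 14.14 in old and 15.70 in young cells (−1.56, FDR 0.000202). Irx3 followed with 9.31 in old and 10.91 in young cells per kb, and Irx1 with 8.88 in old and 10.50 in young cells per kb, in the authors' deposited table. Irx4, with 8.33 in old and 9.68 in young cells per kb in the authors' deposited table, lay below Barx2, and Irx6 had 6.10 in old and 7.88 in young cells per kb there. The fold changes of Irx1, Irx3 and Irx4 were −1.61, −1.60 and −1.34 in the authors' deposited table. Barx2, a gene of follicle and muscle remodelling in mice, had 13.40 in old and 14.76 in young cells (−1.36, FDR 0.000373 in the authors' deposited table). Dlx3 and the Msx genes act in the hair shaft and in BMP response. For Dlx3 the authors' deposited table gives 11.18 in old and 12.96 in young cells, a fold change of −1.78 with FDR 6.21e-08. Msx1 had 9.70 in old and 11.45 in young cells in the authors' deposited table (−1.74), and Msx2 had 9.99 in old and 11.62 in young cells (−1.64). Meis1, a cofactor of Hox proteins found in follicle stem cells, had 11.71 in old and 12.99 in young cells in the authors' deposited table (−1.28, FDR 4.65e-05). Beside the −1.78 of Dlx3, the other Dlx genes had −1.71 for Dlx1, −1.57 for Dlx2, −1.50 for Dlx4 and −1.50 for Dlx5 in the authors' deposited table. Six4, Otx1, Meis2 and Lhx6 had −1.50, −1.58, −1.26 and −1.43 in the authors' deposited table, and Six2 had −1.16. Counting every H3K4me3 peak of the members, 50 of 57 were called lower and 0 higher, where 79.1% of all peaks were lower and 0.281% higher in the authors' deposited table. Outside promoters 13 of 20 were called lower and 0 higher, beside 62.3% lower and 0.928% higher over all such peaks of the authors' deposited table. The start of Six5 lies in an H3K4me3 peak that the authors' deposited table assigns to Dmpk, with −1.71.

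Most of these promoters were bivalent by overlap of peaks. The marks came from separate libraries of bulk cells, so their presence on the same chromatin was not tested. Of the 30 H3K4me3 promoter peaks, 23 (76.7%) overlapped an H3K27me3 peak by at least 1 bp, where 1891 of 12152 genes (15.6%) did. With at least 50% of the H3K4me3 peak covered, the counts were 21 of 30 (70.0%) for the members and 1114 of 12152 (9.17%) for all genes. Covered peaks included those of Nkx1-2, Nkx2-1, Nkx2-2, Nkx6-1, Nkx6-2, Six2, Six3, Six4, Emx1, Emx2, Otx1, Lhx4, Lhx6, Irx6, Meis2, Msx1, Msx3 and the forebrain and limb genes Dlx1, Dlx2 and Dlx5. Dlx4 and Irx1 were covered over 47.1% and 17.1% of their peaks. The promoters of Barx2, Dlx3, Irx2, Irx3, Irx4, Meis1 and Msx2 overlapped no H3K27me3 peak.

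The 7 promoters without H3K27me3 were wider and had more H3K4me3 per kb at the median, a description with no test. Their H3K4me3 peaks were 7.0 to 25.72 kb wide with a median of 9.94 kb, against 0.45 to 9.26 kb and a median of 3.36 kb for the 21 covered ones. Per kb, their median level was 8.40 in old and 9.94 in young cells, and that of the covered ones 6.41 in old and 7.96 in young cells, in the authors' deposited table. Among the 7, Barx2 was the widest and Msx2 the weakest per kb, with 6.86 in old and 8.49 in young cells of the authors' deposited table. Their median fold change of −1.56 was next to the −1.50 of the covered promoters in the authors' deposited table, and the difference was not tested. The widths overlap at the edge: Dlx2, mostly covered, was wider than Dlx3, Irx3 and Msx2.

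**Figure D2:**
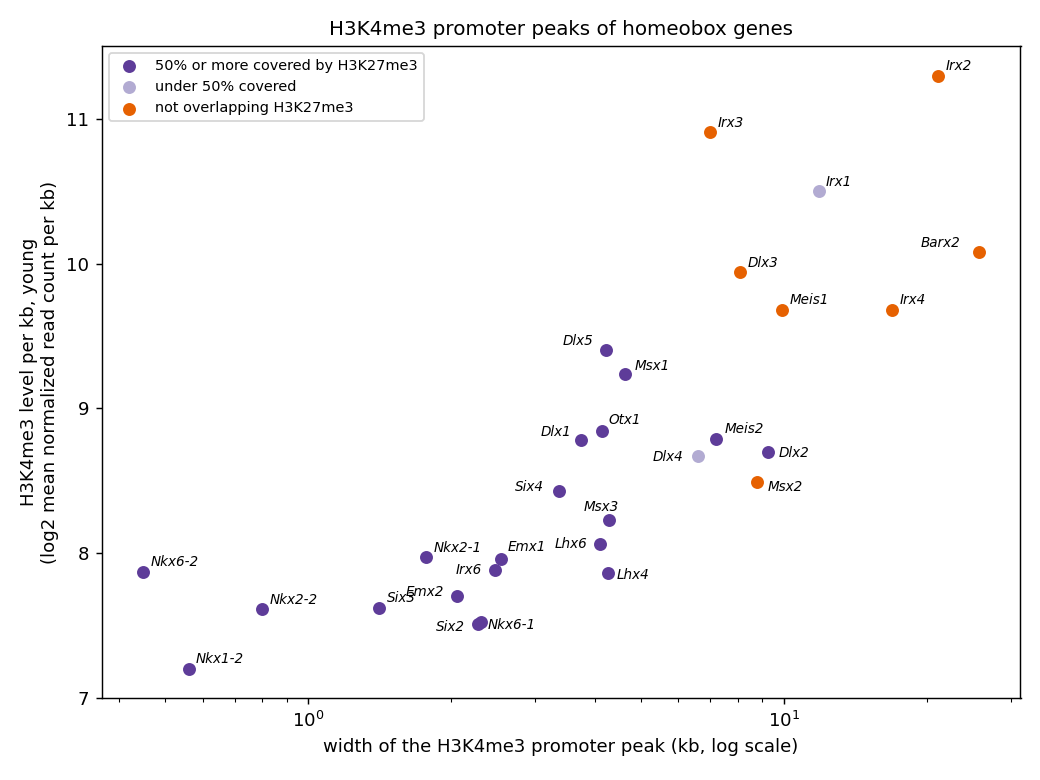
Width of the H3K4me3 promoter peak in kb (log scale) against its level per kb in young cells (log2 mean normalized read count per kb, authors' deposited table) for 29 of the 30 homeobox genes, coloured by cover with H3K27me3 peaks. Barx2, Irx2 and Irx4, which overlap no H3K27me3, lie at the right with 16.93 to 25.72 kb, and the Nkx genes, all covered, lie at the lower left at 0.45 to 2.28 kb.

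Pol2 peaks were annotated at 5 member promoters. With 2 libraries per age, the authors' deposited table called 3 of them lower in old cells and 0 higher, where 85.5% of 3332 genes were called lower and 0.0% higher. Irx3 had 9.22 in old and 11.14 in young cells (−1.93, FDR 0.0167 in the authors' deposited table). Barx2 had 10.40 in old and 12.29 in young cells (−1.89, FDR 0.0242) and Irx1 had 8.64 in old and 10.47 in young cells (−1.83, FDR 0.0292) in the authors' deposited table. Irx2, at 10.09 in old and 11.57 in young cells in the authors' deposited table (−1.48, FDR 0.0648), was not called. Dlx5 was not called either, with 5.28 in old and 7.67 in young cells in the authors' deposited table (−2.39, FDR 0.155). The median of the 5 was −1.89, and that of all genes in the authors' deposited table −2.36. Of the 5, Dlx5 alone had an H3K4me3 peak fully covered by H3K27me3, and Irx1 was partly covered.

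Barx2 carried 10 of the 17 Pol2 peaks of the members, its promoter peak among them. In all 6 of the 17 were called lower and 0 higher, where 52.9% of all Pol2 peaks were lower and 0.0442% higher in the authors' deposited table. Outside promoters 3 of 12 were lower and 0 higher, beside 21.3% lower and 0.118% higher over all such peaks of the authors' deposited table. A Barx2 peak of 16.51 kb over its 3′ end had 10.76 in old and 12.08 in young cells in the authors' deposited table (−1.33, FDR 0.119) and was not called. The lowest FDR belonged to a peak 6011 bases from the start of Irx2, with 5.53 in old and 8.68 in young cells in the authors' deposited table (−3.15, FDR 0.000692).

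**Figure D3:**
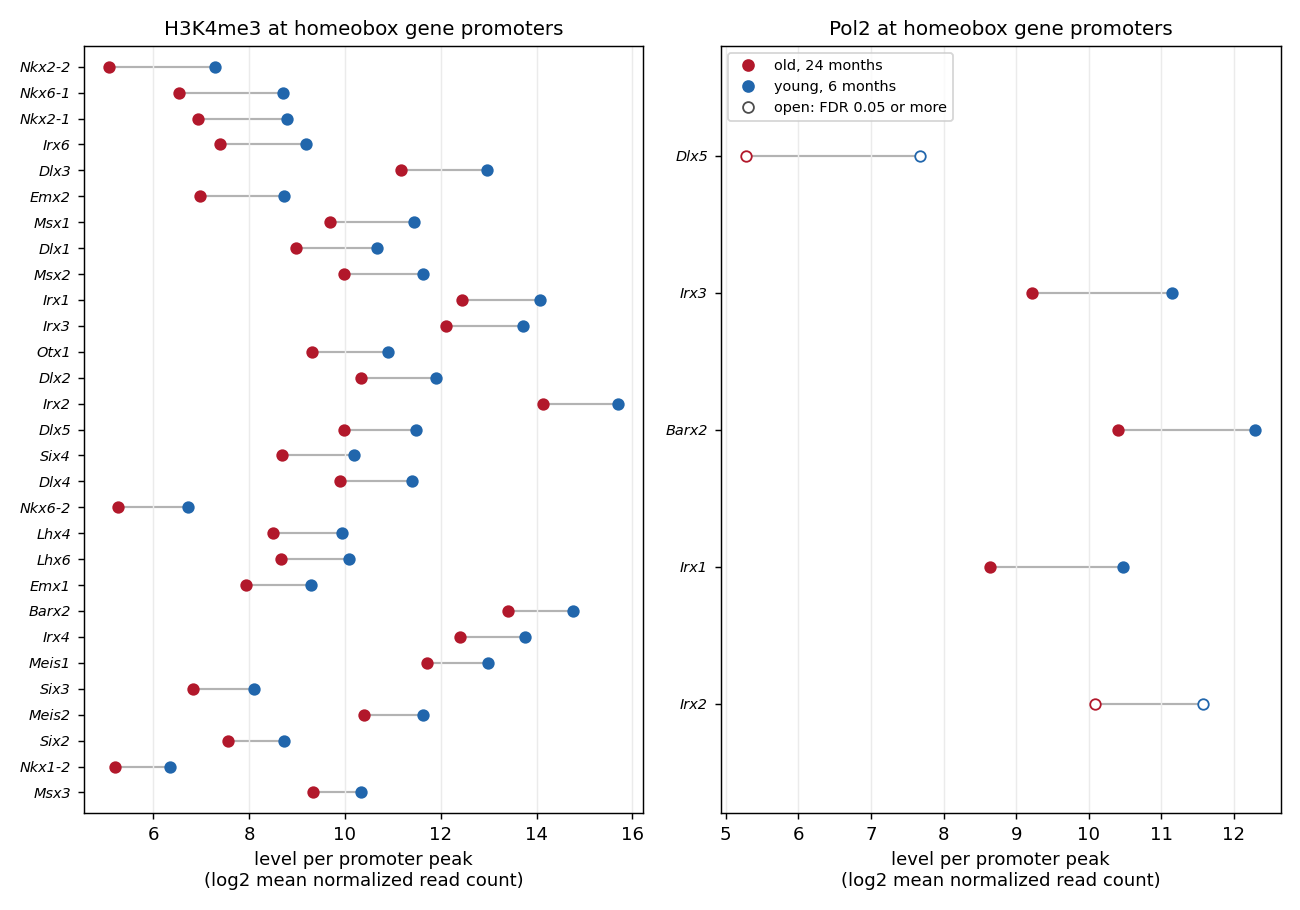
H3K4me3 (left) and Pol2 (right) levels at homeobox promoters in old (red) and young (blue) cells, as the log2 mean normalized read count of each age from the authors' deposited table, with open circles for an FDR of 0.05 or more. All 29 plotted genes on the left and all 5 on the right have the old value left of the young one.

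ATAC-seq counted reads at open chromatin in each library. The deposited table is a selection of 7849 peaks, each with a log2 ratio between the ages of 0.50 or more in size and a deposited −log10 p from 2.0 upward, so every listed peak already differed. The members had 25 of these peaks, 2 of them in promoters and 13 distal intergenic. Old cells had the lower mean in 22 of the 25 and the higher mean in 3, and 85.9% of all listed peaks were lower. Over these peaks, old libraries summed to between 1572998 and 1946804 counts and young ones to between 2456110 and 2773284, which are not library depths.

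Called peaks were those with an FDR under 0.05 in edgeR's quasi-likelihood test on the unscaled counts, 10 lower and 2 higher in old cells among the members. Over all listed peaks 46.4% were called lower and 5.43% higher, so the members' shares of 40.0% and 8.0% lay near the background, as did their median log2 fold change of −0.64 beside −0.64 over all. Since the peaks were selected on the same libraries, these FDRs only rank them. TMM scaling moved the median listed peak up by 0.59, and with it 0 member peaks were called lower in edgeR (1 at an unadjusted p under 0.05, and 0 in DESeq2 with its size factors) and 2 higher, where 0.701% and 13.9% of all listed peaks were. The share of calls that were lower was 89.5% without scaling and 4.81% with TMM. Leaving out 1 library left 5 lower calls without old replicate 3 or young replicate 3, and 6 without old replicate 2 or old replicate 4. There was 1 higher call without old replicate 4 or young replicate 3, and 0 without any other. The peaks at Lhx9 and 40.8 kb from Nkx6-1 were called lower in all 8 fits with 1 library left out, with edgeR FDRs of up to 0.043 and 0.0484, and the other 10 called peaks lost the call in at least 1 of these fits. The old and young libraries did not overlap at 11 lower member peaks and 1 higher one, where 35.8% and 4.88% of all listed peaks did not overlap in those directions.

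The 3 lowest FDRs belonged to peaks that lie inside H3K27me3 peaks. The Lhx9 promoter peak, 0.9 kb before the start (chr1:138848451-138849150), had 135, 245, 182 and 233 counts in old libraries and 352, 343, 328 and 522 counts in young ones. Every old library lay below every young one, and edgeR gave a log2 fold change of −0.96 (SE 0.26, FDR 0.0163). A peak 2.1 kb into Nkx2-3 had 236, 94, 178 and 131 counts in old libraries and 248, 299, 396 and 297 counts in young ones, again with no overlap (−0.96, SE 0.29, edgeR FDR 0.0236). An exonic peak annotated to Nkx6-1 but 40.8 kb away had 12, 23, 30 and 12 counts in old libraries and 93, 61, 50 and 29 counts in young ones. There the lowest young library, at 29, lay within the old range, and edgeR gave −1.59 (SE 0.46, FDR 0.0214). The H3K27me3 peak around it names no gene and was not called, with a log2 fold change of 1.0, higher in old cells (FDR 0.684 in the authors' deposited table).

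At the Lhx6 start, in the window printed above, the peak chr2:36104951-36105700 had 163, 181, 263 and 192 counts in old libraries and 330, 302, 280 and 381 counts in young ones. The ages did not overlap, with a log2 fold change of −0.69 (SE 0.24, edgeR FDR 0.0333). Lhx6 was the only member with an ATAC-seq promoter peak that lies in both marks, and both of those were called lower in the authors' deposited table, H3K27me3 at −0.51 and H3K4me3 at −1.43. A second Nkx2-3 peak, 18.5 kb away and outside its H3K27me3 domain, had 330, 313, 332 and 274 counts in old libraries and 373, 557, 460 and 454 counts in young ones (−0.56, SE 0.21, edgeR FDR 0.0381).

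Barx2, Irx4 and Irx2, whose H3K4me3 promoter peaks overlap no H3K27me3, also had lower peaks. The 2 higher calls, given below, belong to Msx2 and Irx3 of the same group. In Barx2, a peak 7.1 kb inside the gene and under its H3K4me3 and Pol2 domains had 126, 190, 83 and 73 counts in old libraries and 192, 243, 218 and 265 counts in young ones (−0.96, SE 0.31, edgeR FDR 0.0279). The highest old library, at 190, fell just short of the lowest young one, at 192. A peak downstream of Irx4, an Iroquois gene known from the heart, and inside its H3K4me3 peak had 299, 200, 214 and 260 counts in old libraries and 435, 371, 402 and 341 counts in young ones (−0.67, SE 0.23, edgeR FDR 0.0304), with no overlap. A distal peak 31.6 kb from Irx2 had 442, 386, 319 and 340 counts in old libraries and 616, 436, 571 and 642 counts in young ones (−0.61, SE 0.20, edgeR FDR 0.029), where 1 young library lay within the old range.

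Distal peaks of Meis2 and Irx3 were also called lower. The Meis2 intron peak, 91.7 kb from the start, had 64, 57, 55 and 102 counts in old libraries and 102, 150, 164 and 146 counts in young ones, so that the ages met at 102 (−1.01, SE 0.34, edgeR FDR 0.029). A peak 103.2 kb before Irx3 had 229, 188, 358 and 203 counts in old libraries and 565, 483, 274 and 280 counts in young ones (−0.71, SE 0.28, edgeR FDR 0.0438, and up to 0.126 with 1 library left out). Its ages overlapped at 2 young libraries and 1 old one.

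The 2 higher peaks were both distal. The peak 8.9 kb before Msx2 (chr13:53481651-53482150) had 317, 394, 344 and 265 counts in old libraries and 156, 227, 273 and 206 counts in young ones. The ages overlapped only at 265 and 273, and the log2 fold change was 0.61 unscaled (SE 0.25, edgeR FDR 0.0459) and 1.2 with TMM (FDR 0.00118). It lies in an H3K27me3 peak of Msx2 that was not called, at −0.17 in the authors' deposited table. The peak 50.9 kb beyond the start of Irx3 (chr8:91750601-91750800) had 86, 71, 82 and 69 counts in old libraries and 52, 31, 52 and 31 counts in young ones. It did not overlap between ages, with 0.89 unscaled (SE 0.37, edgeR FDR 0.0489) and 1.47 with TMM (FDR 0.00622). Unscaled, this call was lost in all 8 fits with 1 library left out (edgeR FDR 0.0529 to 0.105), and that of Msx2 in 6 of them (up to 0.098).

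The 13 member peaks that were not called included those of Irx5, Irx3, Emx2os, Nkx6-1, Meis2, Dlx1, Dlx2, Barx1 and Barx2, with edgeR log2 fold changes from −0.86 to −0.50 in 12 of them. The remaining one, 186.8 kb from Barx2, had 0.75. The Irx5 peak lies in an H3K4me3 peak that the authors' deposited table assigns to Crnde, with −1.65. Of the 25 member peaks, 10 (40.0%) lay in an H3K27me3 peak, against 8.36% of all listed peaks, 6 (24.0%) in an H3K4me3 peak, against 14.9%, and 1 (4.0%) in a Pol2 peak, against 2.79%.

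**Figure D4:**
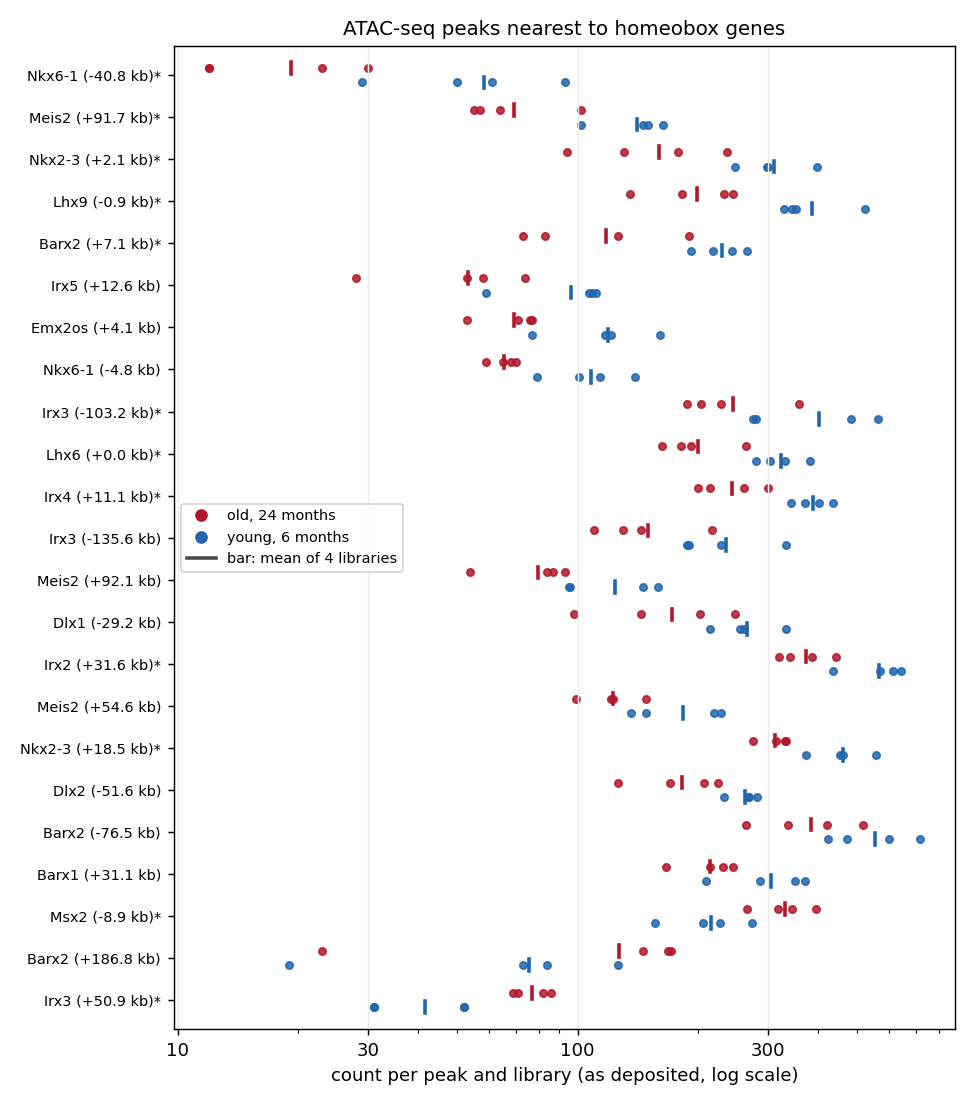
Deposited ATAC-seq counts (log scale) of 23 of the 25 listed peaks nearest to homeobox genes in 4 old (red) and 4 young (blue) libraries, with a bar at each mean and an asterisk at the 12 peaks called without scaling. The signed distance to the gene's start is given in kb. The old mean lies left of the young one for all but the bottom 3 peaks, of Msx2, Barx2 and Irx3.

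RNA gave no value for any member. The authors' deposited table lists 597 genes with an adjusted p of at most 0.1. With 0 of the 57 members among them, the RNA of these genes, including the strongly marked Irx2 and Barx2, was not shown to differ. A gene that is not listed may have had an adjusted p above 0.1 or too few reads, and its level is not known from the table.

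Homeobox genes that the symbol rule leaves out, a list of 78 of which 75 were in a table, were counted the same way. Of 59 with an H3K27me3 promoter peak, 36 (61.0%) were called lower and 0 higher in the authors' deposited table, with a median of −0.47. The largest called changes of that list were at Mkx, a tendon gene, at −1.03, and at Alx1, a gene of the face, at −0.99 in the authors' deposited table. H3K4me3 was called lower at 44 of 45 promoters and Pol2 at 8 of 8 in the authors' deposited table. Of those 45 promoters, 33 (73.3%) were bivalent. The list had 41 listed ATAC-seq peaks, 35 of them with a lower mean in old cells and 19 called lower without scaling, and 0 with TMM in edgeR (0 also at an unadjusted p under 0.05). The 19 are 46.3%, next to the 46.4% of all listed peaks. Called higher were 3 of the 41 without scaling and 6 (14.6%) with TMM in edgeR.

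By member, 49 of the 57 had a promoter peak in at least 1 ChIP-seq table: 19 with H3K27me3 and H3K4me3 annotated, 19 with H3K27me3 only of these 2 marks and 11 with H3K4me3 only. The last group holds Dlx5 and Msx3, which lie in H3K27me3 domains annotated to Dlx6 and Caly. The 8 members without one were Emx2os, Irx5, Lhx1os, Lhx8, Nkx2-2os, Nkx6-3, Otx2os1 and Six5. Of these, Lhx8, Lhx1os and Nkx2-2os start inside an H3K27me3 peak annotated to a neighbouring gene by their RefSeq starts. Emx2os, Otx2os1 and Nkx6-3 do so by the starts that the deposited distances of their peaks imply. For Nkx6-3 that neighbour is Ank1, and for the opposite-strand transcripts it is the member after which each is named (Lhx1, Nkx2-2, Emx2 and Otx2).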

How the data were processed

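ATAC-seq was measured in 4 old and 4 young samples, H3K27me3 and RNA in 3 of each age, and H3K4me3 and Pol2 in 2 of each; groups come from the sample titles, and the labels name no batch. Per the submitters' processing notes, alignment used BWA (0.7.12 for ATAC-seq, 0.7.15 for ChIP-seq) on GRCm38 and STAR 2.5.2b on GRCm38.p5 for RNA. The same notes list MACS2 2.2.7.1 and DiffBind 2.14.0 for ChIP-seq, and featureCounts and DESeq2 1.22.2 for RNA. For ATAC-seq they give neither a peak caller nor a test.

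Per the file headers, the deposited ATAC-seq table gives each library's count per peak, beside the authors' log2 ratio of young to old and a −log10 p. The deposited ChIP-seq tables give log2 mean normalized counts per age and merged peak, the authors' log2 fold (young minus old, reversed in sign here), a p-value and an FDR. The deposited RNA table gives a mean normalized signal, a log2 fold change, a test score and p-values for 1 comparison. Since values per library exist for ATAC-seq alone, only it was tested anew, over all 7849 listed peaks, with edgeR 4.0.16 in R 4.3.3 (quasi-likelihood F-test, two-sided, equal library sizes, filterByExpr, Benjamini-Hochberg, SE from the F statistic). The script was tested on simulated data. Library depths are unknown. The labels do not say whether libraries of an age came from separate mice, so p-values measure only the spread between these libraries.

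All ATAC-seq library pairs differed beyond sampling noise (lowest chi-square per degree of freedom 10.8). Old and young libraries of the same number had correlations of −0.03, −0.11, 0.04 and −0.19 between their deviations from the group means. These values show no pairing by number. Over peaks selected for a difference between the ages, they cannot settle whether libraries were handled in numbered pairs.

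The members and lists were chosen with earlier results of these data known. Members were named in the text where their ATAC-seq peak was called or lay in a promoter, where their promoter was among the 10 largest called changes of a ChIP-seq table or ran against most, where its level was highest or lowest, or where they belong to a list of follicle and skin genes. Others were named after their values were seen. Some genes are counted in the totals but not reported here by name, and the figures leave them out. Overlaps, promoter features and figures used Python 3.11.15, pandas 2.3.3, numpy 2.4.6 and matplotlib 3.10.9, and promoters came from RefSeq (GRCm38.p6). Alternatives were TMM, DESeq2 1.42.0, filters, thresholds, windows, each library left out and a replicate block.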

Additional observations from a re-analysis of the deposited data

Results flagged for a closer look

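In 3 ATAC-seq peaks 1 of 4 libraries stood far from the others of its age, by its gap to the nearest library over the range of the group (Dixon's test at the 95% level). Chance flags about 1 in 20 groups, and 50 groups were checked. At the Lhx9 promoter peak the highest young library had 522 counts (gap over range 0.876). At the peak 12.6 kb from Irx5 the lowest young library had 59 counts (0.923). At the peak 186.8 kb from Barx2 the lowest old library had 23 counts (0.831).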

How the results depend on the processing

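The 10 member ATAC-seq peaks called lower became 0 with TMM scaling, 0 with DESeq2 size factors, 17 with DESeq2 and all size factors 1, and 2 with the replicate number as a block, and ran from 5 to 10 with 1 library left out. The 2 called higher became 0 with the replicate block and 0 to 1 with 1 library left out, and stayed 2 with TMM and both DESeq2 settings. The labels state no pairing by replicate number, so the block is given here only. With TMM the signs that turned included those of Meis2 54.6 kb (0.00), Nkx2-3 18.5 kb (0.03), Barx2 −76.5 kb (0.05), Dlx2 (0.06) and Barx1 (0.09), and with DESeq2 size factors those of the same peaks but Meis2 (Nkx2-3 0.02, Barx2 0.04, Dlx2 0.05, Barx1 0.07). The 3 Pol2 promoters called lower became 0 at an FDR under 0.01. The lower calls of H3K27me3 (27, and 20 at an FDR under 0.01) and of H3K4me3 (30, and 29) and the bivalent count (23, and 21 at 50% cover) stayed within 1.5 times. The stricter threshold ended 11 single promoter calls. No ChIP-seq or RNA library could be left out, since those tables hold no values per library. The causes were not tested. By construction TMM recentres a list that mostly moves one way, whatever the source of the shift, and library depths are unknown.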
